A study of Homo sapiens with 4 samples.

Results

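The HOX cluster genes were examined in the m6A meRIP-seq peak lists of OE-19 cells, an established cell line of adenocarcinoma of the esophagogastric junction. Members were the protein-coding genes of the GENCODE annotation on hg38 whose symbol is HOXA, HOXB, HOXC or HOXD followed by a number. These were 39 of 20046 protein-coding genes, with 11 genes in HOXA, 10 in HOXB, 9 in HOXC and 9 in HOXD. The assay enriches RNA fragments that contain N6-methyladenosine (m6A) by means of an antibody, and a peak is a stretch of the genome where such fragments accumulate. The series comprised 2 anti-m6A immunoprecipitation (IP) samples and 2 samples of input RNA, all from OE-19 cells grown in serum-containing medium, with no treatment or genetic change named in the labels. The lists of the IP samples held 24607 peaks (replicate 1) and 19318 peaks (replicate 2). No peak list of the inputs was analysed here, so the values of both IP replicates are given side by side, without a test between groups. The samples represent 1 cell line, and the labels do not say whether the replicates came from separate cultures.

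HOX genes encode transcription factors that set position along the body axis. They lie in 4 clusters that arose by duplication, and genes at the same place in different clusters form paralogue groups numbered 1 to 13. Each protein carries a homeodomain of 60 residues that binds DNA, encoded by the homeobox. Along the gut, low-numbered (anterior) genes are typically expressed toward the foregut and high-numbered (posterior) genes toward the hindgut. A peak requires that the RNA is present and that it is pulled down, so the absence of a peak shows neither that a gene is silent nor that its RNA lacks m6A. The lists hold no read numbers, so the depth of the libraries is unknown. The labelled cell type could be checked only through peaks. Of 8 epithelial marker genes, 3 (CDH1, CLDN3 and CLDN4) had an exonic peak in both replicates, and the other 5, with EPCAM and KRT8 among them, had none in either. Of 4 fibroblast markers none did, with COL1A1 called in replicate 1 alone, and CD68 was called in both among 2 leukocyte markers. Neither of 2 endothelial markers had a peak. Across the protein-coding background, 33.0% were called in both lists, so these few marker counts cannot decide the cell type.

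The sequences below show the GGAC core motif of m6A at the strongest shared peak of each of 8 HOX genes, on the strand of the gene and from 5′ to 3′. They are ordered by the geometric mean of the fold enrichment, and the motif is in capitals. Each is the GGAC nearest to the summit of replicate 1 within the interval that both replicates called, read from hg38. They lie at chr7:27198286-27198346 for HOXA13, chr7:27128941-27128969 for HOXA4, chr12:53956561-53956589 for HOXC12, chr17:48726689-48726717 for HOXB13, chr17:48626240-48626268 for HOXB9, chr7:27108027-27108087 for HOXA3, chr12:53975564-53975592 for HOXC11 and chr17:48550403-48550463 for HOXB3. HOXC12 and HOXC11 are on the plus strand and the others on the minus strand.
HOXA13: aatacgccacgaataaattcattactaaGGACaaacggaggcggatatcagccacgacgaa
HOXA4: gatacctgagaaGGACtacttggtatcaa
HOXC12: ttttaaggtgcaGGACacgggcgccagcc
HOXB13: ggctggggccaaGGACtctgctgagaggc
HOXB9: tgtccatttctgGGACgcttagcagctat
HOXA3: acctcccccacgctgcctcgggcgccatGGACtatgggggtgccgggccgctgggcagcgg
HOXC11: ccggaacctcctGGACcctctatctgact
HOXB3: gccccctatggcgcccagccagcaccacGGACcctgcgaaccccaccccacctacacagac

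The motif lay in CDS for HOXA13, HOXB9, HOXA3 and HOXB3, and after the stop codon for HOXA4, HOXC12, HOXB13 and HOXC11. In replicate 1 its adenine was closest to the summit for HOXC12, at 3 bp (19 bp in replicate 2). In replicate 2 it was closest for HOXB13, at 9 bp (17 bp in replicate 1). The adenine was over 100 bp from both summits for HOXA13 (168 and 105 bp) and HOXB3 (142 and 191 bp). The shared interval held between 1 GGAC (HOXC12) and 5 (HOXC11).

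First, the HOX genes with an m6A peak were counted. A peak was assigned to a gene when its summit lay in an exon of that gene. In replicate 1, 19 of the 39 HOX genes (48.7%) had an exonic peak, beside 41.9% of all protein-coding genes. In replicate 2, 17 (43.6%) had one, beside 33.7% of all protein-coding genes. A peak in both replicates was found for 16 HOX genes (41.0%, against 33.0% of all protein-coding genes) and a peak in either for 20 (51.3%, against 42.6%). The HOX shares lay near these background shares and are no result about the family. Of the 17 genes of replicate 2, 16 (94.1%) were also found in replicate 1.

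In HOXA, 5 of 11 genes had a peak in both replicates, which were HOXA3, HOXA4, HOXA7, HOXA10 and HOXA13. In HOXB they were 6 of 10, namely HOXB3, HOXB6, HOXB7, HOXB8, HOXB9 and HOXB13. In HOXC they were 5 of 9, namely HOXC9, HOXC10, HOXC11, HOXC12 and HOXC13. HOXB5 and HOXC6 had a peak in replicate 1 alone, and HOXB2 in replicate 2 alone. No exonic peak was found in HOXA2, HOXA5, HOXA6, HOXA9, HOXA11, HOXB1, HOXB4, HOXC4, HOXC5 or HOXC8.

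No peak of either list had its summit anywhere in the HOXD cluster, which spans 98187 bp of chromosome 2 from 176092721 to 176190907. HOXD1, HOXD3, HOXD4, HOXD8, HOXD9, HOXD10, HOXD11, HOXD12 and HOXD13 were therefore all without a peak. Among all protein-coding genes, 42.6% had an exonic peak in either replicate, and the HOXD genes were not tested against this share. The other clusters, of 107099 bp (HOXA), 200225 bp (HOXB) and 117200 bp (HOXC), held 9, 15 and 16 peaks in replicate 1 and 7, 12 and 11 in replicate 2. Outside HOXD, the nearest summit toward lower coordinates lay 162654 bp away in replicate 1 and 139371 bp away in replicate 2. Toward higher coordinates it lay 1021327 and 1040718 bp away. Chromosome 2 as a whole held 1436 peaks in replicate 1 and 1082 in replicate 2.

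**Figure D1:**
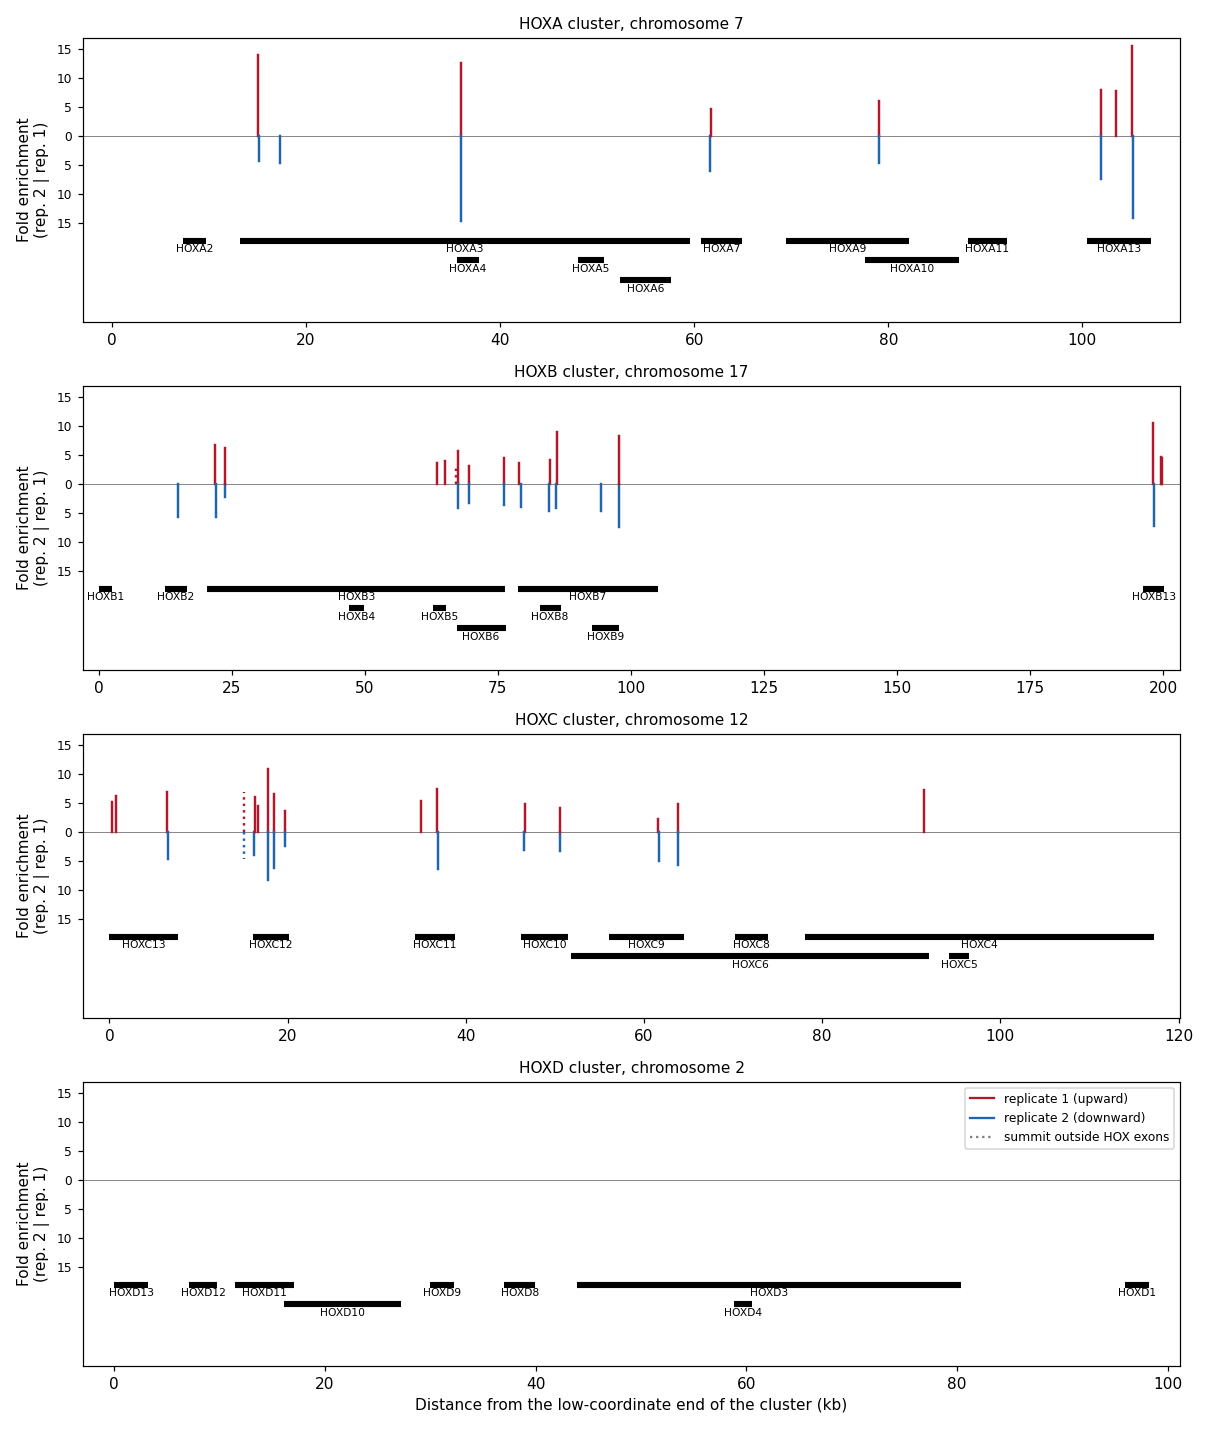
Peaks across the 4 HOX clusters. The x axis gives the distance in kb from the low-coordinate end of each cluster, vertical lines give the fold enrichment at each summit (replicate 1 upward, replicate 2 downward, dotted where the summit lies outside HOX exons), and black bars are HOX genes. Peaks of both replicates stand in the HOXA, HOXB and HOXC panels, and the HOXD panel holds no peak of either.

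By paralogue group, 2 of the 8 genes of groups 1 to 3 had a peak in both replicates, 5 of the 15 genes of groups 4 to 8 and 9 of the 16 genes of groups 9 to 13, beside 33.0% of all protein-coding genes. The groups were not tested against each other. All 9 posterior genes with a peak were seen in both lists. Group 13, whose members pattern the most posterior structures, had 3 of its 4 genes called in both replicates, and group 12 had HOXC12 but not HOXD12. The HOX genes with an exonic peak in either replicate had longer transcripts (median 2266.5 nt, range 1363 to 5015, n = 20) than those without (median 1886 nt, range 989 to 2669, n = 19), with overlapping ranges. This value describes the transcripts and was not tested.

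The 39 genes held 38 exonic peaks in replicate 1 and 29 in replicate 2. Their median fold enrichment, the signal at the summit over the background of the peak caller, was 6.12 in replicate 1 (range 2.35 to 15.5) and 4.67 in replicate 2 (range 2.13 to 14.7). All exonic peaks of protein-coding genes had a median of 5.21 in replicate 1 (18488 peaks) and 4.72 in replicate 2 (12003 peaks). The HOX median was thus above the overall median in replicate 1 and below it in replicate 2. By cluster, the median was 7.86 and 6.05 in HOXA, 4.61 and 4.33 in HOXB, and 5.48 and 4.83 in HOXC. Of the HOX peaks, 26 of 38 in replicate 1 (68.4%, 95% Wilson interval 52.5% to 80.9%) and 26 of 29 in replicate 2 (89.7%, interval 73.6% to 96.4%) overlapped a peak of the other list. Among all protein-coding exonic peaks these shares were 60.6% and 95.9%, inside the intervals of the HOX shares. The intervals cover counting error only.

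Across the 26 pairs of peaks, fold enrichment was higher in replicate 1 for 19, with a median log2 ratio of 0.32. Among 11018 pairs in protein-coding exons, 80.2% were higher in replicate 1 and the median log2 ratio was 0.43, so the median shift had the same sign in both sets. The summits of a HOX pair lay a median of 38.5 bp apart, and those of all pairs 26 bp apart.

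**Figure D2:**
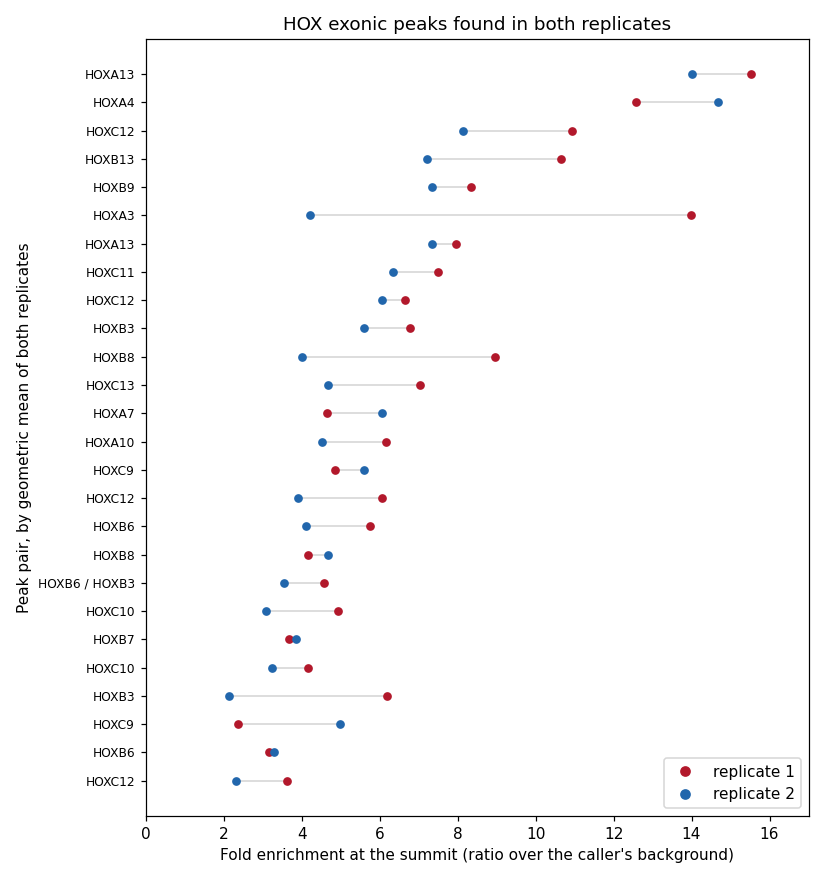
Fold enrichment of the 26 HOX exonic peaks called in both replicates. The x axis is the fold enrichment at the summit, each row is a pair of peaks labelled with its gene, ordered by the geometric mean, and a grey line joins replicate 1 (red) to replicate 2 (blue). The top peaks of HOXA13 and HOXA4 are above 12 in both replicates, and the HOXA3 pair near the stop codon is the farthest apart, at 13.98 and 4.20.

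The strongest HOX peak belonged to HOXA13, a gene required for the digits, the hindgut and the urogenital tract. It ran from 27197827 to 27198376 on chromosome 7 in replicate 1 and from 27197831 to 27198362 in replicate 2, in the second and last exon. Its fold enrichment was 15.5 and 14.01, at percentiles 97.6 and 98.7 of the protein-coding exonic peaks of each list. Counted from the stop codon's first base, the summit lay at 52 nt in replicate 1 and −11 nt in replicate 2, and both peaks spanned the stop codon. HOXA13 has the longest transcript of the family (5015 nt), and a second peak was found deep in its 3′ UTR, 3272 and 3290 nt after the stop codon, with a fold enrichment of 7.96 and 7.33. Another 3′ UTR peak, 1720 nt after the stop codon with a fold enrichment of 7.86, was called in replicate 1 alone.

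HOXA4, a central gene of the axis, came next, and its peak reached 12.6 in replicate 1 and 14.7 in replicate 2. At percentile 99.0, it was the highest HOX value of replicate 2. The peak lay in the 3′ UTR, at 27128669 to 27129219 and 27128804 to 27129118 of chromosome 7, with its summit 236 and 294 nt after the stop codon. The replicate 1 summit also fell in an exon of a lncRNA on the same strand that has no symbol. The replicate 2 peak overlapped that exon too, though its summit lay outside it. Either value may thus belong in part to the lncRNA. HOXA3, which is needed for the thymus and parathyroid glands, had a peak of 13.98 in replicate 1 but of 4.20 in replicate 2. This log2 ratio of 1.73 was the widest among the 26 pairs. Its summits lay at −170 and −270 nt from the stop codon, in the last of 6 exons, and replicate 2 had a further peak in the preceding exon (fold enrichment 4.68).

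HOXC12 carried the most peaks of any HOX gene, 5 in replicate 1 and 4 in replicate 2. They ran along the whole transcript. The first lay in exon 1, 184 and 112 nt after the start codon, with a fold enrichment of 6.07 and 3.90. The strongest sat at the stop codon, with its summit 8 and 30 nt after it and a fold enrichment of 10.9 and 8.14, and had a −log10 q of 50.5 and 47.1, the highest among HOX peaks in each list. Further 3′ UTR peaks lay 773 and 751 nt after the stop codon (6.66 and 6.07) and 1956 and 1950 nt after it (3.61 and 2.30). A peak at 53955440 to 53955625 in exon 1 (4.59) was not called in replicate 2. A peak outside any annotated gene was also shared, with its summit 932 bp before the annotated start of HOXC12 in replicate 1 and 921 bp in replicate 2, and a fold enrichment of 6.92 and 4.59.

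Several other posterior genes had a peak near the stop codon. HOXB13, known from the prostate, had its peak 106 and 80 nt after the stop codon with a fold enrichment of 10.7 and 7.20. In HOXC13, known from hair follicles, it lay 70 and 162 nt after the stop codon (7.03 and 4.67). HOXC11 had its summits 155 and 317 nt after the stop codon (7.501 and 6.35), and HOXC9 had them 3 and 7 nt after it (4.85 and 5.61). A second HOXC9 peak, in exon 1, was higher in replicate 2 (2.35 and 4.98). HOXB9 differed, since its shared peak lay in exon 1, 27 and 29 nt after the start codon, with a fold enrichment of 8.35 and 7.33. The stop codon side of HOXB9 was called in replicate 2 alone, at −84 nt from the stop codon (4.55).

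Among the central genes, HOXB8, known from blood cell lineages, had peaks in both exons. That in exon 1 had a fold enrichment of 8.96 and 4.003, with summits 235 bp apart, and that at the stop codon 4.17 and 4.67. HOXB6 was covered by a CDS peak (3.17 and 3.30) and a 3′ UTR peak (5.76 and 4.11). A further shared peak (4.58 and 3.56) lay where upstream exons of HOXB6 and HOXB3 overlap, so it was counted for both genes. HOXB7 had 1 wide peak across its stop codon and 3′ UTR (3.69 and 3.84), whose summits were 420 bp apart. The HOXA7 peak in the 3′ UTR had a fold enrichment of 4.65 and 6.05. The anterior gene HOXB3 had a peak across its stop codon (6.79 and 5.60) and a peak in exon 4 (6.19 and 2.13). The latter held the lowest HOX value of replicate 2. The posterior gene HOXC10, known from motor neurons of the lumbar cord, had an exon 1 peak of 4.93 and 3.09.

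The 12 HOX peaks found in replicate 1 alone had a median −log10 q of 6.13 (range 3.34 to 10.1), below the 16.2 of the 26 shared ones, whose range of 1.83 to 50.5 includes it. Among the 12 were peaks of HOXB5 (2 peaks, fold enrichment 3.70 and 3.999), HOXB13 (2 peaks, 4.65 and 4.48), HOXC13 (2 peaks, 5.31 and 6.31), HOXC6 (7.22), HOXC11 (5.48), HOXC12 and HOXA13. In replicate 2 they were 3, in HOXA3, HOXB2 (5.56) and HOXB9. The HOXA7 peak and a HOXB13 peak of replicate 1 (both 4.65) had the same fold enrichment and q, a pair of values that 107 peaks of that list held.

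Next, the place of the peaks in the transcript was examined. Most HOX genes are compact, with 2 exons in 35 of 39, and the second exon typically holds the homeobox, the stop codon and the 3′ UTR. The last exon held 22 of 38 summits in replicate 1 and 20 of 29 in replicate 2. The same share was not computed for all protein-coding exonic summits, so it is not read as a trait of HOX genes. Of the HOX summits, 34.2% (13 of 38, interval 21.2% to 50.1%) in replicate 1 and 34.5% (10 of 29, interval 19.9% to 52.7%) in replicate 2 lay within 200 nt of the stop codon. Among all protein-coding exonic summits these shares were 22.7% and 25.4%. The rest of the CDS held 15 and 11 HOX summits (39.5% and 37.9%, against 43.8% and 43.5%) and the rest of the 3′ UTR 9 and 7 (23.7% and 24.1%, against 17.1% and 18.9%). The intervals of the HOX shares include the overall shares in each of these regions. The median fold enrichment of HOX peaks was 6.79 and 4.67 in the stop codon window, 5.31 and 4.20 in the rest of CDS, and 6.66 and 6.07 in the rest of the 3′ UTR.

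No HOX summit lay in the 5′ UTR of the representative transcript. The counts were 0 of 38 in replicate 1 and 0 of 29 in replicate 2. Taken as allowing up to 3 summits, they allow shares of up to 7.89% and 10.3%, and the upper Wilson limits were 9.18% and 11.7%. The overall share of 5.35% in replicate 2 lay below both limits, so a lower share in HOX genes was not detectable there. In replicate 1 the overall share of 8.46% lay above the 7.89% but below the Wilson limit of 9.18%. The limits thus disagree, and a lower share was not established. The shared peak in upstream exons of HOXB6 and HOXB3 lay outside the representative transcripts, so it was placed in no region. The 5′ UTR of these transcripts is short, with a median of 88 nt (range 7 to 789).

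**Figure D3:**
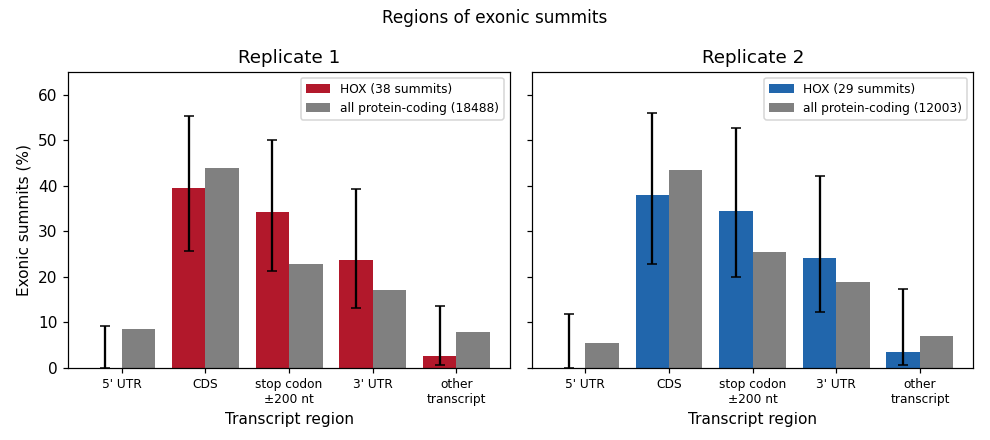
Share of exonic summits by transcript region for HOX genes (coloured) and all protein-coding genes (grey), in each replicate. The y axis is the percentage of summits, and whiskers are 95% Wilson intervals of the HOX shares, which are wide since they rest on 38 and 29 summits.

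A summit in the stop codon window was found in both replicates for 8 genes, of which 7 belong to paralogue groups 9 to 13. These were HOXA10, HOXA13, HOXB13, HOXC9, HOXC10, HOXC12 and HOXC13, and the remaining gene was HOXB8. Of the 16 genes with an exonic peak in both replicates, 9 belong to groups 9 to 13. By summits, the window held 3 of 5 in groups 1 to 3, 2 of 10 in groups 4 to 8 and 8 of 22 in groups 9 to 13 in replicate 1, and 0 of 5, 2 of 7 and 8 of 16 in replicate 2. The posterior share was thus not the highest in replicate 1. In groups 9 to 13 the homeobox ends 18 to 45 nt before the stop codon (median 27 nt, 16 genes), whereas in groups 1 to 8 this distance runs from 24 to 579 nt (median 117 nt, 23 genes). A peak at the stop codon of a posterior gene therefore adjoins the homeobox. In HOXA3 and HOXB3 the homeobox ends 579 and 552 nt before the stop codon. The summits of their last-exon peaks lay 410 and 310 nt past its end in HOXA3, and 598 and 265 nt past it in HOXB3. Both HOXB3 peaks and the replicate 1 peak of HOXA3 were wide enough to reach into the homeobox.

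Inside the homeobox itself lay 2 of 38 summits in replicate 1 and 3 of 29 in replicate 2. That is 5.26% and 10.3% of the summits, beside a homeobox share of 7.95% of transcript length (median of the 20 genes with a peak). The shares lay on either side of the length share, so neither a lack nor an excess is read from them. Upstream of the homeobox lay 15 and 8 summits, and downstream 20 and 17. The summits inside belonged to the group 10 genes HOXA10 (fold enrichment 6.17 and 4.52) and HOXC10 (4.17 and 3.23) in both replicates, and to HOXB9 in replicate 2. HOXA10 is known from the uterus and the reproductive tract.

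**Figure D4:**
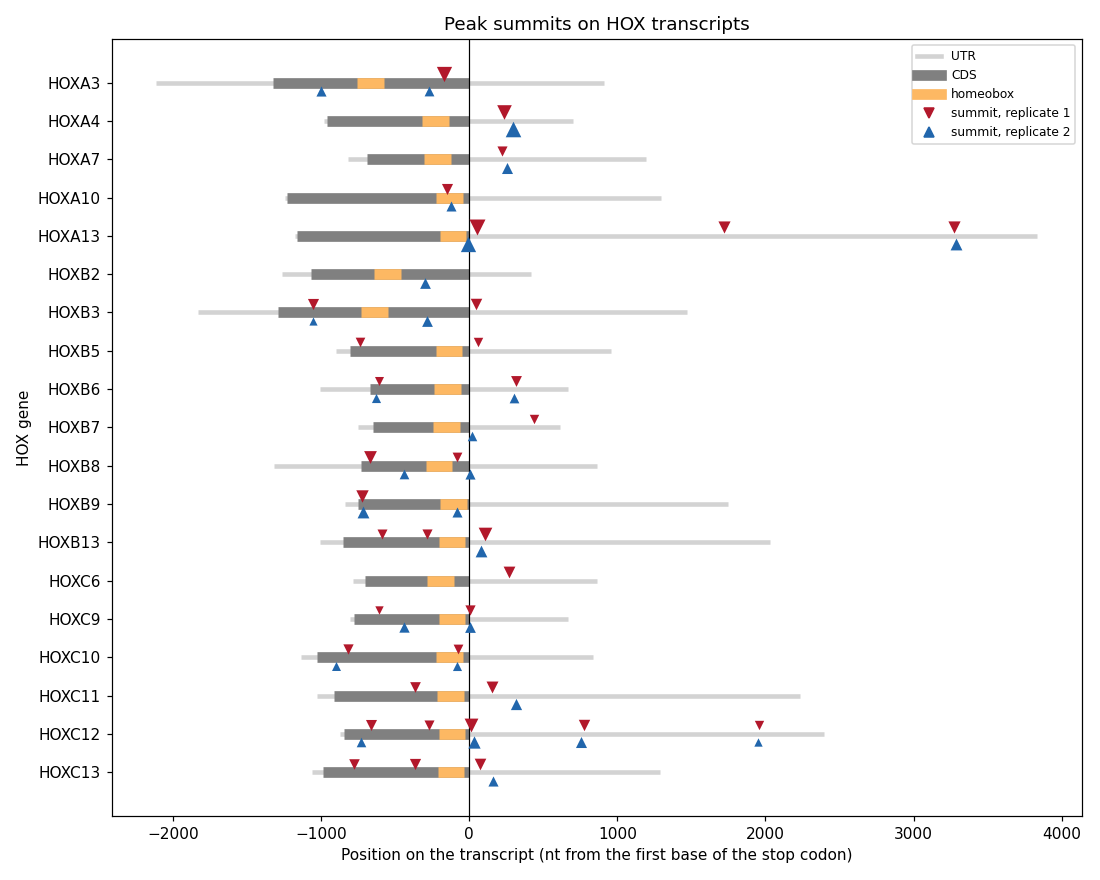
Summits on the representative transcript of 19 HOX genes with an exonic peak. The x axis is the position in nt relative to the start of the stop codon, grey bars are CDS, thin bars UTR and orange bars the homeobox, and triangles are summits of replicate 1 (red, pointing down) and replicate 2 (blue, pointing up), larger for a higher fold enrichment. Summits of the posterior genes HOXA13, HOXB13, HOXC9, HOXC12 and HOXC13 sit at or just after the stop codon in both replicates, and the shared summit of HOXB6 and HOXB3 in upstream exons is not drawn.

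The homeobox sequences of HOXA10 and HOXC10 are shown because the summits of both replicates lie in them. Bases inside the peaks of both replicates are in capitals. Peaks of other HOX genes, such as HOXC12 and HOXC9 in replicate 1, also reached into the homeobox, so coverage of it is not particular to these paralogues. They are on the strand of the gene, at chr7:27171947-27172126 (minus strand) for HOXA10 and chr12:53989219-53989398 (plus strand) for HOXC10 in hg38. Both were chosen after their values were seen.
HOXA10: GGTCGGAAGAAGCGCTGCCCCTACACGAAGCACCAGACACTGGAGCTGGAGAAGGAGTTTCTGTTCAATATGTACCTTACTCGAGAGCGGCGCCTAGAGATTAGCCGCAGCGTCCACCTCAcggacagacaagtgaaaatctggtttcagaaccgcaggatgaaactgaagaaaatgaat
HOXC10: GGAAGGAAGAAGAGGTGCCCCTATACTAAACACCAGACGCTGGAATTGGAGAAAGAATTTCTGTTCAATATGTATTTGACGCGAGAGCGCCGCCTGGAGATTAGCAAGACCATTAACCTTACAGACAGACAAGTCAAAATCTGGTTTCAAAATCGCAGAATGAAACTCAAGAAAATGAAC

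The 2 sequences are identical at 147 of 180 bases (81.7%) and encode the same residue at 56 of 60 positions. Both peaks covered the whole homeobox in HOXC10, with summits at base 148 in replicate 1 and base 144 in replicate 2. In HOXA10 they covered its first 121 bases, with summits at bases 74 and 100. The peaks of the 2 paralogues thus overlapped in the homeobox, but the summits lay at different places in it.

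The GGAC motif was then searched within 50 nt of the HOX summits on the strand of the gene. It was present at 23 of 38 summits in replicate 1 (60.5%, interval 44.7% to 74.4%) and at 16 of 29 in replicate 2 (55.2%, interval 37.5% to 71.6%). For all protein-coding exonic summits the shares were 49.9% and 51.9%, inside these intervals. Over the whole peak, 36 of the 38 and 24 of the 29 held at least 1 GGAC, at median HOX peak widths of 340.5 and 315 bp. A whole-peak share was not computed for the protein-coding background, so these counts are not read as a trait of HOX peaks. Among the shared peaks whose sequences are shown above, GGAC was near the summit in both replicates for HOXA4, HOXA3, HOXC12, HOXB13 and HOXB9. Among the shared peaks with both summits near the stop codon, GGAC was absent within 50 nt in both replicates for HOXA13, HOXC13, HOXC9 and HOXC10. Other shared peaks of both kinds are not listed. The mean GC content of the windows was 58.7% and 59.2%, beside 57.8% and 56.0% overall.

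The clusters are densely covered by lncRNAs on the opposite strand, and the lists carry no strand. Exons of antisense lncRNAs overlap an exon of the representative transcript in 17 of the 39 HOX genes. By summit, 3 of 38 in replicate 1 (7.89%, interval 2.72% to 20.8%) and 2 of 29 in replicate 2 (6.90%, interval 1.91% to 21.96%) lay in an antisense lncRNA exon. Among all protein-coding exonic summits the shares were 2.88% and 2.98%, below the HOX shares but inside their intervals. These HOX summits were those of the 3′ UTR peaks of HOXA7, which overlaps HOXA-AS3, and of HOXB6, which overlaps HOXB-AS3, in both replicates. The third was the exon 1 peak of HOXC13 in replicate 1, which overlaps HOXC13-AS. From the lists alone, these peaks cannot be assigned to a strand.

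Of 28 lncRNA genes that overlap the clusters, 5 had an exonic summit in replicate 1 and 2 in replicate 2. For all of these but HOTTIP, the summit also lay in an exon of a HOX gene. HOTTIP, a lncRNA next to HOXA13, had a peak of fold enrichment 5.12 in replicate 1 alone. HOTAIR, HOTAIRM1 and HAGLR had none. Summits in introns of HOX genes were counted only where no annotated exon of any gene covered them. A single intronic summit, in HOXB3 in replicate 1, had a fold enrichment of 2.84 and lay 111 bp beyond the 3′ end of HOXB6. It also lay inside the antisense lncRNA gene HOXB-AS3, so its strand is not known. Replicate 2 had no intronic summit in a HOX gene. Among all protein-coding genes, 9.17% in replicate 1 and 9.42% in replicate 2 had an intronic summit. The counts over 39 HOX genes were not tested against these shares, and intron length was not matched. No lack of intronic peaks in HOX genes is read from them.

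Finally, a list of genes that act with HOX proteins or on the HOX loci was examined. The list holds 25 genes, of which 15 carried exonic peaks in replicate 1, 13 in replicate 2 and 13 in both. Among all protein-coding genes, 41.9%, 33.7% and 33.0% did so, and the list was not tested against them. Among the TALE cofactors, which bind DNA together with HOX proteins, 5 of 9 had a peak in both replicates. Among them, the highest fold enrichment was 15.2 in replicate 1 and 8.70 in replicate 2 for MEIS2, 13.8 and 11.5 for PBX2, 7.02 and 5.47 for PKNOX1, and 6.77 and 7.06 for PBX4. MEIS1 had a peak in replicate 1 alone (6.31). In MEIS2 and PKNOX1 the highest peak lay in the stop codon window in both replicates, and in PBX2 it lay in the 3′ UTR. Of the 6 ParaHox genes, the sister cluster of HOX, the gut factors PDX1 (19.7 and 10.9) and CDX2 (13.3 and 6.62) had peaks. PDX1 thus exceeded every HOX peak of replicate 1. EVX1, a homeobox gene beside HOXA13, had 3 peaks in each replicate, the highest in its 5′ UTR (12.1 and 8.37), whereas EVX2 beside HOXD13 had none. Among the locus regulators, 5 of 8 had a peak in both, with values of 17.8 and 11.1 for RARA, a retinoic acid receptor. The others were KMT2A (7.18 and 6.25) and MEN1 (7.45 and 4.89), which act in a complex that keeps HOX genes active, and the Polycomb genes EED (5.07 and 4.20) and SUZ12 (3.25 and 3.85).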

How the data were processed

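m6A meRIP-seq of OE-19 cells gave 2 IP and 2 input samples, and the groups were taken from the sample titles. Per the study's methods, fragmented total RNA was incubated with an antibody to m6A. The labels instead name UV fixation and lysis of the cells. Reads were mapped to hg38. The methods name TopHat2 and the submitters' processing notes name fastp and HISAT2. Peaks were called with MACS2 per sample, at default settings, and whether the input was the control is not given in the sources used here. The authors deposited, for each peak, a fold enrichment (a ratio over the caller's local background), −log10 p, −log10 q and a score, which was not used. The highest q was 0.0491 and 0.0497. A fold enrichment depends on that background and is no level of m6A.

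All 44 and 53 sequence names of the lists matched hg38. Summits were placed on GENCODE version 44. The exon of the representative transcript (MANE Select, otherwise the longest CDS) took precedence over other exons, and protein-coding genes over lncRNAs. A peak counted as shared if a peak of the other list covered 1 bp or more of it. The stop codon window was 200 nt on each side and the motif window 50 nt. The homeobox was found from its conserved WFxNxR signature in the translated CDS (39 of 39 genes), with the tryptophan at position 48 of the homeodomain. Intervals are 95% Wilson intervals. The number of peaks sets the precision, since depth is unknown. The HOX members, the cofactor list and the markers were chosen with earlier results of these data known. HOX genes are named, with values for those with an exonic peak in either replicate, sequences for up to 8, and values for listed cofactors and regulators with a peak in both. Values of 1 member and 1 cofactor are not reported here. MEIS1, COL1A1, HOTTIP and the HOXA10 and HOXC10 sequences were added after their values were seen. No test was run, because 1 group of 2 replicates had values. Placement on transcripts and sharing were tested on simulated summits. Alternatives were other thresholds, peak midpoints, other exon, overlap, stop codon and motif rules, and each replicate left out. Python 3.11.15, pysam 0.24.0, statsmodels 0.14.6, biopython 1.88 and matplotlib 3.10.9 were used.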

Additional observations from a re-analysis of the deposited data

How the results depend on the processing

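Of 146 alternative values, 121 stayed within 1.5 times a count, the interval of a share or the replicate spread of a median, and 25 moved. A fold enrichment of 5 or more left 23 HOX exonic peaks in replicate 1 and 12 in replicate 2, 10 HOX genes with a peak in replicate 2 and 7 in both replicates. It left 8 and 3 peaks in CDS, 4 near the stop codon in replicate 2, 1 in an antisense lncRNA exon in replicate 2 and no intronic HOX gene in replicate 1 (0, as at q of 1e-05 or less). It raised the median to 7.22 and 6.78 and lowered the shared portion of replicate 1 to 39.1%, since partners under 5 were removed. A stop codon window of 400 nt held 21 and 17 summits and left 5 and 3 in the 3′ UTR. GGAC fell to 28.9% within 25 nt in replicate 1 and rose to 76.3% and 72.4% within 100 nt. Summits within 100 bp gave 72.4% shared in replicate 2. Peak midpoints left 1 antisense overlap in replicate 2, and leaving out summits in exons of several genes left 0 in each by construction. With 1 replicate left out, the HOX genes counted for both replicates ranged from 17 to 19, those for either from 17 to 19, and the intronic ones from 0 to 1. These are the counts of the remaining list by construction, so they do not measure stability, though they are included in the 146. Values given per replicate have no alternative with a replicate left out. No paired analysis was possible because no peak list of the inputs was analysed here and no result comes from a test. Depth is unknown, so genes without a peak may be below detection.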
